A study of Mus musculus with 8 samples.

Results

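Chromatin marks were examined at 40 genes that are known targets of the transcription factor MYC and act in ribosome assembly and cell growth, out of 21631 protein-coding genes in the annotation. The genes were taken by name, and all 40 were found by symbol. For each gene the peaks of all 8 libraries were collected at its promoter, meaning 1 kb on each side of either annotated gene end, and over its window, meaning the gene body with flanks of 20 kb, on mouse build mm10. The 40 windows cover 2.36 Mb in total, and each also holds 0 to 5 other protein-coding genes, with a median of 2, so a window is not the gene's own territory. 4 members have no other protein-coding gene in the window, namely Ncl, Hk2, Odc1 and Rcl1.

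The cells were haematopoietic stem cells (HSCs), which sustain blood formation for life, sorted from C57BL/6 mice of about 10 months by the gate lineage-negative, cKit+, Sca1+, CD48- and CD150+. In the mice called RXRKO, both retinoid X receptor genes, Rxra and Rxrb, carried the deleted allele (RxRa∆/∆ and RxRb∆/∆, from Rxrabfl/fl) after Vav-Cre, which drives recombination in blood cells. The controls (WT) are described in the study's design as Rxrabfl/fl mice without Cre and in the sample characteristics as VavCre+ and WT, so a difference in Cre cannot be told apart from the deletion. Each CUT&RUN assay used 7500 HSCs from a pool of 4 or 5 mice. In this assay an antibody against a histone mark directs a nuclease to the marked nucleosomes and the released DNA is sequenced. For H3K4me1, which lies at enhancers and beside gene starts, each genotype has 2 libraries. For H3K4me3, found at gene starts, and H3K27ac, found where promoters and enhancers are active, each genotype has 1 library, which allows no test. It is not stated whether the replicates came from separate pools of mice, so p-values measure only the spread between libraries. In bulk peak lists, a mark in fewer cells and a weaker mark per cell cannot be told apart.

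The 8 lists held between 47835 and 165128 peaks. The H3K4me1 lists of WT covered 112.5 Mb (replicate 1) and 117.8 Mb (replicate 2), those of RXRKO 109.8 and 133.3 Mb, so RXRKO replicate 2 was the broadest list. The lists give no read totals, and depth is therefore unknown. Inside Rxrb a stretch of 781 bp, chr17:34033516-34034296, lay under H3K4me1 peaks of both WT replicates and under no RXRKO peak of any mark. For Rxra the longest such stretch was 76 bp. Both stretches were sought over the whole gene and not at the deleted exons, and no other gene was scanned for comparison. They are therefore no check of either deletion. Promoters of 10 of 10 HSC marker genes carried H3K4me3 in both genotypes, against 0 of 3 genes that are silent in blood and 0 of 4 granulocyte and monocyte genes in either genotype. H3K4me3 was called at 0 lymphocyte promoters in WT and 1 in RXRKO, of 4, and at 2 and 3 of 3 erythroid promoters. It was called at 2 of 3 stromal and endothelial promoters in both genotypes. H3K27ac was called at 7 HSC, 0 lymphocyte, 1 granulocyte and monocyte and 2 stromal and endothelial promoters in both genotypes. It was called at 2 erythroid promoters in WT and 3 in RXRKO, and at 1 silent promoter in WT and 0 in RXRKO. H3K4me1 was called at 10 and 10 HSC promoters in the WT replicates and at 9 and 8 in RXRKO. It was called at 3 and 3 lymphocyte promoters in WT and at 2 and 2 in RXRKO. At stromal and endothelial promoters the counts were 2 and 2 in WT and 3 and 3 in RXRKO. In all 4 libraries H3K4me1 was called at 3 erythroid, 1 granulocyte and monocyte and 1 of the 3 silent promoters. The part of other cells in the values below was not tested.

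MYC pairs with MAX and binds DNA at short sites called E-boxes, of which the letters CACGTG are the best known. Its targets include much of the machinery that transcribes, modifies and folds ribosomal RNA into ribosomal subunits, together with enzymes that supply nucleotides, polyamines and glycolytic energy to growing cells. HSCs are known for low protein synthesis and for MYC activity that rises as they leave the stem cell state. Retinoid X receptors bind DNA mainly as partners of other nuclear receptors. MYC binding and RNA were not analysed here.

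Promoter sequences are shown for the 4 members chosen by the number of CACGTG matches in 1 promoter entry and then by name, since they place a candidate MYC site relative to the peaks described below. The letters come from RefSeq on build GRCm38.p6, the same build as mm10, each read 5′ to 3′ on the gene's strand. Capitals mark CACGTG, which reads the same on both strands, so 1 search covers both. The Ldha stretch is chr7:46845554-46845803 and the Exosc5 stretch is chr7:25658903-25659152, both on the plus strand and each the 250 bases before the start. The Grwd1 stretch, chr7:45830740-45830767 on the minus strand, follows the start, with its match beginning at base 35 counted from the start. The Hspd1 stretch, chr1:55088306-55088335 on the minus strand, lies before the Hspd1 start and inside the annotated Hspe1 gene.
Ldha: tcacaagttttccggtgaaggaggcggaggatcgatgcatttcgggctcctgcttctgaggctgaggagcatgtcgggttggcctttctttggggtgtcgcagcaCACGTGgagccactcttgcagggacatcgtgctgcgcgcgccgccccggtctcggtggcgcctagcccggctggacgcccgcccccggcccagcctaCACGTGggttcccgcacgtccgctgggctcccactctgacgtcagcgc
Exosc5: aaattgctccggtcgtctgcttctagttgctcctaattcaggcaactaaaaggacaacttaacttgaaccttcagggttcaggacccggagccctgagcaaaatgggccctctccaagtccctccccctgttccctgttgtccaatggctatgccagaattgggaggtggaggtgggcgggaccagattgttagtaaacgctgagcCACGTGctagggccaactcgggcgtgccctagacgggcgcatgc
Grwd1: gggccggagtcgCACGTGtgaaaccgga
Hspd1: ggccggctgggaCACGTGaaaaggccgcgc
Ldha, the lactate dehydrogenase A subunit, had 2 matches, beginning 145 and 48 bases before its start, and was the only member with 2 in 1 promoter entry. Nme1 has 2 entries with 1 match each.

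The RefSeq table gave 300 bases, 250 before and 50 after the start, for 35 of the 40 members. Tcof1, Fbl, Rrp12, Bop1 and Srm had no entry. At least 1 CACGTG stood in these bases in 12 of 35 members (34.3%), against 1558 of 17274 genes (9.02%) and 1331 of the 11532 genes with H3K4me3 at the start in both genotypes (11.5%). Of 27 other MYC targets in the table, 5 held a match (18.5%). The 12 members were Exosc5, Grwd1, Hspd1, Imp4, Ldha, Mybbp1a, Nme1, Nop2, Pes1, Prmt3, Utp20 and Wdr43, with 14 matches in all. The median GC content was 61.2% in the members' promoters and 60.7% in those of genes with H3K4me3 at the start. A match is a description of letters and not a bound site. All 14 matches lay under an H3K4me3 peak in both genotypes and under an H3K27ac peak in WT, and 13 lay under one in RXRKO. The exception was the match 13 bases before the start of Prmt3, an arginine methyltransferase whose known substrate is a small-subunit ribosomal protein. H3K4me1 covered all 14 in both replicate 2 libraries and 13 in both replicate 1 libraries, where the Wdr43 match was not covered. Cover so near a start is common. Of the 11532 genes with H3K4me3 at the start, H3K4me3 covered 93.8% in WT and 94.4% in RXRKO at 50 bp before it. H3K27ac covered 76.2% and 68.0% there, and H3K4me1 73.8% and 88.0% in WT and 72.1% and 87.0% in RXRKO.

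H3K4me3 and H3K27ac marked the promoters of nearly the whole set in both genotypes, and no member's promoter was called in 1 genotype alone. H3K4me3 was called at 37 of the 40 members in both WT and RXRKO, where 65.6% of all genes were called in both, 0.398% in WT only and 1.46% in RXRKO only. H3K27ac was called at the same 37 members in both genotypes, where 56.2% of all genes were called in both, 4.74% in WT only and 1.32% in RXRKO only. The promoters of 35 members were called in all 8 libraries, against 52.9% of all genes, and the 5 others were Nop58, Wdr43, Ldha, Supv3l1 and Slc29a2.

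The 3 members without a call, Ldha, Supv3l1 and Slc29a2, have a RefSeq start that lies more than 1 kb inside the outermost annotated end, and all 3 carried both marks at that start. At the Ldha start, position 46845804 of chromosome 7, H3K4me3 covered 1554 bp within 1 kb in WT and 1589 bp in RXRKO, and H3K27ac covered 1518 and 1644 bp. At the start of Supv3l1, a mitochondrial RNA helicase on the minus strand at position 62449738 of chromosome 10, H3K4me3 covered 1566 bp in WT and 1429 bp in RXRKO, and H3K27ac covered 1069 and 1284 bp. At the start of Slc29a2, a nucleoside transporter at position 5024006 of chromosome 19, H3K4me3 covered 1474 and 1465 bp and H3K27ac 1126 and 1057 bp. With the RefSeq start in place of the gene ends, an alternative added after the values were seen, both marks were called at 35 of 35 members in both genotypes. Of all 17274 genes with such a start, H3K4me3 was called at 11588 in WT and 11696 in RXRKO, and H3K27ac at 10600 and 10051. By that start 32 of 35 members (91.4%) were called in all 8 libraries, against 53.5% of 17274 genes.

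H3K4me1 was also present at these 3 starts, with 1543 and 1786 bp in WT and 1488 and 1725 bp in RXRKO within 1 kb of the Ldha start. It covered 1691 and 1670 bp in WT and 1592 and 1898 bp in RXRKO at Supv3l1. At Slc29a2 it covered 1562 and 1615 bp in WT and 1619 and 1562 bp in RXRKO. The genotypes overlapped at all 3 starts. Of the members not called in every library at the gene ends, Nop58 and Wdr43 were the opposite case, with little H3K4me1 at the start. They were not alone in the set, as Gnl3 had 39 and 576 bp in WT and 38 and 387 bp in RXRKO. Nop58, a core protein of the box C/D snoRNPs that guide methylation of ribosomal RNA, had 0 and 302 bp in WT and 191 and 352 bp in RXRKO. Wdr43, a small-subunit processome protein, had 350 and 300 bp in WT and 0 and 593 bp in RXRKO. H3K4me3 there covered 1422 bp in WT and 1218 bp in RXRKO at Nop58, and 1421 and 1437 bp at Wdr43.

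Ranked within each list by the authors' −log10 q, the members' H3K4me3 peaks were higher than most. The median member stood at percentile 69.9 of all genes called at a RefSeq start in WT and 66.8 in RXRKO, with 27 and 25 of 35 members above the middle. For H3K27ac the median percentiles were 53.2 and 50.6, and for H3K4me1 they ran from 45.9 to 57.8. The members' starts therefore ranked high for H3K4me3 and near the middle for the other marks. The median length covered by H3K4me3 within 1 kb of the start was 1550 bp in WT and 1520 bp in RXRKO, against 1210 and 1230 bp over all genes. For H3K27ac it was 1160 and 1090 bp, against 641 and 520 bp. The middle over all genes includes genes with no peak, which the percentiles do not.

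The H3K4me3 promoter peak differed widely in length among members. The longest in WT was that of Ppat, the first enzyme of purine synthesis, at 2809 bp (chr5:76950096-76952904) with the authors' fold over background of 5.42, and it was 2526 bp long in RXRKO. That of Hk2, hexokinase 2 of glycolysis, was 2794 bp long (chr6:82772133-82774926, fold 5.37) in WT and 2879 bp in RXRKO. That of Wdr43 was 2789 bp long (chr17:71615795-71618583, fold 5.10) and 2831 bp in RXRKO. The 3 widest peaks were thus low, with folds near 5.

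The shortest was that of Grwd1, a histone-binding protein of large subunit assembly, at 1086 bp (chr7:45830131-45831216, fold 8.88) in WT and 1194 bp in RXRKO. That of Farsa, a subunit of the phenylalanyl-tRNA synthetase, was 1254 bp long (chr8:84856863-84858116, fold 13.2) in WT and 1358 bp in RXRKO. That of Utp20, a small-subunit processome scaffold, was 1311 bp long (chr10:88825998-88827308, fold 15.0) in WT and 1349 bp in RXRKO. These narrow peaks had the higher folds, and in RXRKO too each of these 3 peaks was shorter than each of the 3 widest.

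Hspd1 and Hspe1 encode the mitochondrial chaperonins HSP60 and HSP10, are transcribed in opposite directions and overlap at their starts in the annotation. They were the only pair of members whose windows overlapped. A single H3K4me3 peak of 2589 bp, chr1:55086612-55089200, spanned both starts in WT, and a peak of 2583 bp, chr1:55086672-55089254, did so in RXRKO. No value can separate these genes at their shared promoter.

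Around the RefSeq starts, H3K4me3 covered all 35 members from 50 bp before to 550 bp after the start in both genotypes. Of the 11532 genes with H3K4me3 at the start, it covered 93.8% in WT and 94.4% in RXRKO at 50 bp before. At 550 bp after the start it covered 87.6% and 88.4% of them. H3K4me1 covered 77.1% and 97.1% of the members 50 bp before the start in WT replicates 1 and 2, and 82.9% and 97.1% in RXRKO. Over those 11532 genes the shares were 73.8% and 88.0% in WT and 72.1% and 87.0% in RXRKO. Among the members H3K4me1 thinned to 25.7% and 42.9% in WT and 34.3% and 62.9% in RXRKO at 550 bp after the start. Its lowest share before 1350 bp came at 550 bp in WT replicate 1 and at 650 to 850 bp in WT replicate 2 (40.0%). In RXRKO it came at 850 bp in replicate 1 (25.7%) and at 950 bp in replicate 2 (37.1%). At 1350 bp H3K4me1 had risen again to 65.7% and 57.1% in WT and 65.7% and 65.7% in RXRKO. Over the 11532 genes with H3K4me3 at the start, cover at 550 bp was 46.7% and 56.4% in WT and 44.5% and 61.7% in RXRKO, and at 1350 bp it was 35.9% and 31.7% in WT and 34.8% and 38.0% in RXRKO. The members' share at 550 bp was lower than that of all these genes in 3 of the 4 libraries, all but RXRKO replicate 2. In that library it was lower at 950 bp, with 37.1% against 52.6%. The members' share at 1350 bp was higher in all 4. This is a description with no test. H3K27ac at 50 bp before the start covered 94.3% of members in WT and 74.3% in RXRKO, against 76.2% and 68.0% of all these genes. At 150 bp after the start it covered 85.7% of members in WT and 91.4% in RXRKO, against 74.3% and 67.1%.

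**Figure D1:**
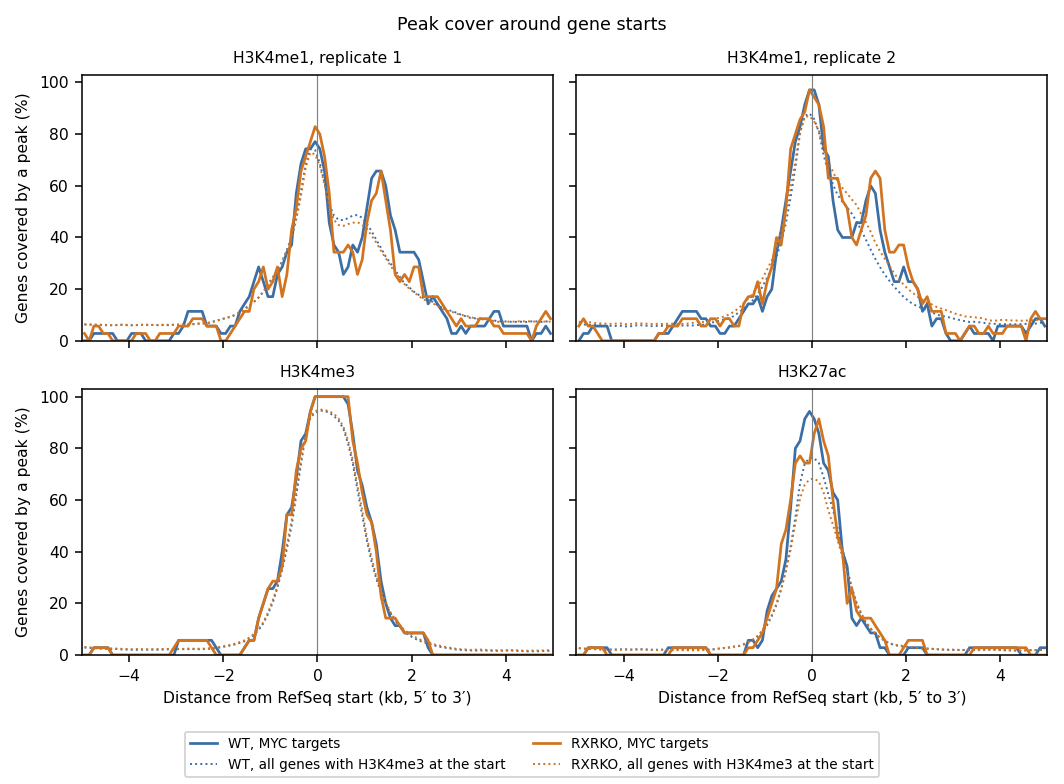
Share of genes whose 100 bp bin is covered by a called peak, in percent, against the distance from the RefSeq start in kb along the direction of transcription, for the 35 MYC targets with a start (solid) and 11532 genes with H3K4me3 at the start (dotted), in WT (blue) and RXRKO (orange). H3K4me3 reaches all 35 members just after the start in both genotypes, where H3K4me1 dips before a second crest near 1350 bp.

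H3K4me1 was compared between genotypes by the length covered by called peaks in each gene's window, as log2 of the length plus 1000 bp, with each library centred on its median over the genes tested. No member passed the test. limma called 0 of 17760 genes at an adjusted p under 0.05 in either direction (0.0%), and 1051 genes (5.92%) had an unadjusted p under 0.05, among them 2 of the 40 members, Nop58 and Odc1. The difference, RXRKO minus WT, was above 0 in 22 members and below 0 in 18, with a median of 0.024 against -0.004 over all genes. It ran from -0.23 to 0.33. On centred values both RXRKO libraries lay above both WT libraries in 7 members, where 15.7% of all genes did so, and below them in 8, where 17.6% did so. Before centring, 30 members were above 0 and 10 below, as were 12694 and 5066 of all genes. The split of signs thus moved with the centring. Leaving out a library leaves 1 in that genotype, which is assumed to vary like the 2 of the other. Leaving out WT replicate 1, WT replicate 2 or RXRKO replicate 1 gave 88, 13 and 98 called genes, and leaving out RXRKO replicate 2 gave 0, with no member among them. The smallest p that an exact permutation of 2 against 2 libraries can give is 0.333, two-sided.

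Nop58 (chromosome 1, 59684961 to 59711510, plus strand) had the highest difference. H3K4me1 covered 4401 and 3949 bp of its window in WT replicates 1 and 2, and 5394 and 6159 bp in RXRKO. Both RXRKO libraries were above both WT libraries. The difference was 0.33 ± 0.11 (SE, limma, n = 2 libraries per genotype, unadjusted p = 0.0108, adjusted p = 0.61), with 0.26 within replicate 1 and 0.40 within replicate 2. It was 0.12 with 5 kb flanks, 0.18 with 50 kb flanks and 0.14 with peaks of −log10 q of at least 5 only. With peaks of fold 4 or more only, the Nop58 window fell below the mean of 1000 bp required and was not measured. The peaks numbered 11 and 9 in WT and 11 and 14 in RXRKO. A region of 354 bp inside the gene, chr1:59689854-59690207, and a region of 878 bp past its higher end, chr1:59718434-59719311, were called in both RXRKO libraries and in neither WT library.

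Odc1 (chromosome 12, 17544808 to 17551502, plus strand), ornithine decarboxylase, which makes the first polyamine, had the lowest difference. H3K4me1 covered 8216 and 8113 bp in WT and 6467 and 7885 bp in RXRKO. Both RXRKO libraries were below both WT libraries, RXRKO replicate 1 by the wider margin. The difference was -0.23 ± 0.083 (SE, limma, n = 2, unadjusted p = 0.0199, adjusted p = 0.735), with -0.29 within replicate 1 and -0.17 within replicate 2. With 5 kb flanks it was -0.061. The peaks numbered 9 and 10 in WT and 9 and 10 in RXRKO, so the number of peaks was the same and their length was not.

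The next members on the positive side were Ppat, Nop2 and Noc4l. Ppat, whose window held 4876 and 4092 bp in WT and 4974 and 6119 bp in RXRKO, had a difference of 0.19 (limma adjusted p = 0.925). Its RXRKO replicate 1 was only just above WT replicate 1, and the difference was 0.056 without WT replicate 2 and 0.33 without WT replicate 1. Nop2, a methyltransferase of large-subunit ribosomal RNA, had 5184 and 5964 bp in WT and 6462 and 7156 bp in RXRKO, a difference of 0.19 (adjusted p = 0.866). Both RXRKO libraries were clear of both WT libraries, but the difference was 0.050 with peaks of fold 4 or more only, 0.092 with −log10 q of at least 5 and 0.058 with 50 kb flanks. Noc4l, a nucleolar factor of small subunit maturation, had 2768 and 3101 bp in WT and 2953 and 4325 bp in RXRKO, a difference of 0.16 (adjusted p = 0.974). The WT and RXRKO lengths of Noc4l overlapped before centring, and with peaks of fold 4 or more only the difference was -0.090. It was 0.058 without RXRKO replicate 2, 0.27 without RXRKO replicate 1, 0.068 with 5 kb flanks and 0.36 with −log10 q of at least 5.

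On the negative side followed Ncl, Nme1 and Hspe1. Ncl, nucleolin, the major nucleolar RNA-binding protein, had 4633 and 5140 bp in WT and 3690 and 5175 bp in RXRKO, a difference of -0.19 (limma adjusted p = 0.925). Only RXRKO replicate 1 was low before centring, and without it the difference was -0.099. It was -0.065 with −log10 q of at least 5 and -0.10 with the same number of peaks per list. Nme1, a nucleoside diphosphate kinase, had 5646 and 6070 bp in WT and 5351 and 5606 bp in RXRKO, a difference of -0.14 (adjusted p = 0.964). Both its RXRKO lengths were below both WT lengths, but with peaks of fold 4 or more only the difference was 0.024. It was -0.060 without RXRKO replicate 2, -0.22 without RXRKO replicate 1, -0.050 with 5 kb flanks and -0.048 with 50 kb flanks. Hspe1 had 2134 and 1496 bp in WT and 1771 and 1592 bp in RXRKO, a difference of -0.12 (adjusted p = 0.998). The WT replicates of Hspe1 differed more from each other than the genotypes did, and the difference was 0.078 without WT replicate 1 and 0.036 without RXRKO replicate 2, but -0.32 without WT replicate 2 and -0.28 without RXRKO replicate 1. Hspd1, whose window overlaps that of Hspe1, had 2724 and 1693 bp in WT and 2193 and 2021 bp in RXRKO, a difference of -0.087.

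**Figure D2:**
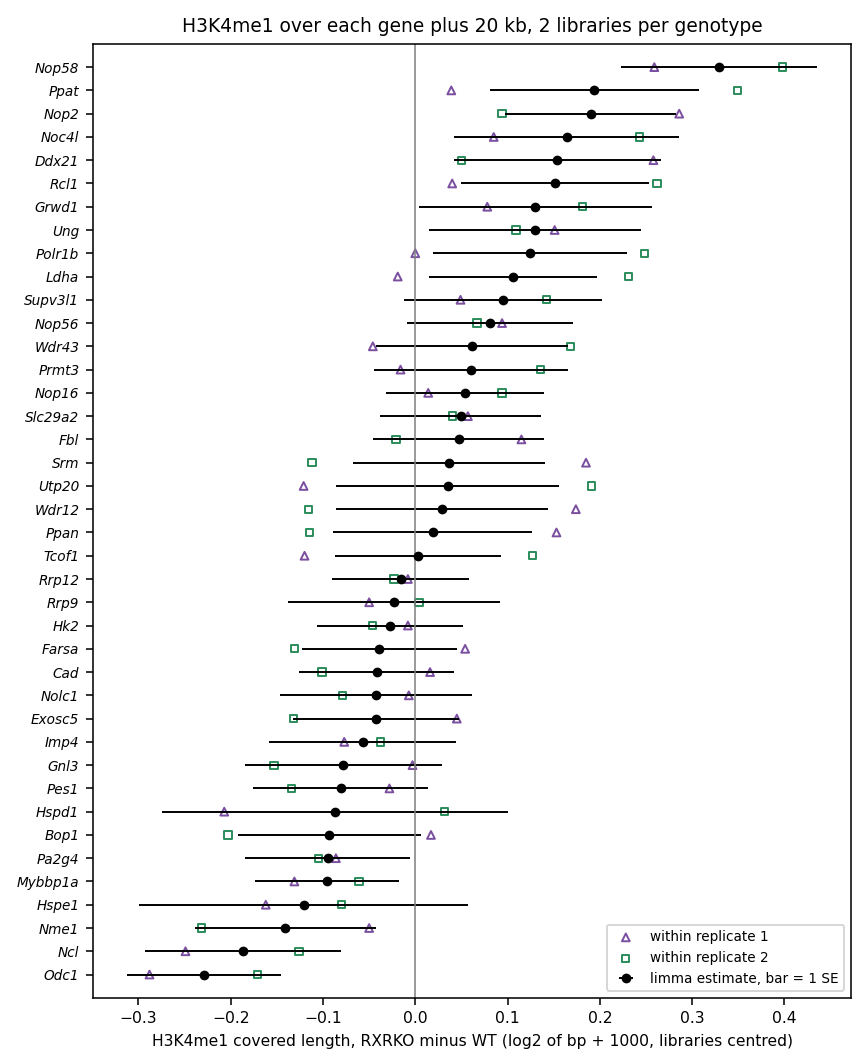
Difference in H3K4me1 covered length over each gene plus 20 kb, RXRKO minus WT, in log2 of bp plus 1000 after centring each library, for the 40 MYC targets ordered by the limma estimate (black point, bar 1 SE, 2 libraries per genotype), with the difference within replicate 1 (triangle) and replicate 2 (square). Estimates run from -0.23 for Odc1 to 0.33 for Nop58, and 22 lie above 0 and 18 below.

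By role, the 5 genes of snoRNPs and ribosomal RNA modification (Nop58, Nop56, Fbl, Nop2 and Nolc1) had H3K4me1 window differences above 0 in 4 and below 0 in 1, with a median of 0.081. Nop56 and Fbl, the partners of Nop58 in the box C/D snoRNP, had 0.081 and 0.047, and Nolc1, a snoRNP chaperone, had -0.043. The 5 genes of ribosomal RNA transcription and nucleolar structure had a median of 0.003, from -0.19 for Ncl to 0.15 for Ddx21, a nucleolar RNA helicase. Polr1b, the second largest subunit of RNA polymerase I, had 0.12, and Tcof1, the treacle factor that supports polymerase I, had 0.003. Mybbp1a, a nucleolar MYB-binding protein, had -0.096. None of these passed the test.

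The 7 genes of small subunit assembly had a median of 0.035, from -0.057 for Imp4, which binds the precursor RNA with the U3 snoRNP, to 0.16 for Noc4l. Rcl1, a factor of 18S maturation, had 8755 and 7369 bp in WT and 8920 and 10011 bp in RXRKO. Its difference was 0.15, and its genotypes overlapped after centring. Rrp9, a U3 snoRNP protein, had -0.023, Rrp12, an export factor of pre-ribosomes, had -0.016, Utp20 had 0.035 and Wdr43 had 0.061. The 8 genes of large subunit assembly had a median of -0.030, from -0.095 for Pa2g4, a ribosome-associated growth regulator, to 0.13 for Grwd1. Bop1, Pes1 and Wdr12, which form the PeBoW complex of 28S maturation, had -0.093, -0.081 and 0.029. Gnl3, nucleostemin, had -0.078, and Nop16 and Ppan had 0.054 and 0.019.

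The 4 genes of RNA decay and translation ranged from -0.043 for Exosc5, an RNA exosome subunit, to 0.095 for Supv3l1, with -0.039 for Farsa and 0.060 for Prmt3. The 5 genes of nucleotides and DNA repair ranged from -0.14 for Nme1 to 0.19 for Ppat, with -0.042 for Cad, the first enzyme of pyrimidine synthesis, 0.049 for Slc29a2 and 0.13 for Ung, uracil DNA glycosylase. Of the polyamine and glycolysis genes, Odc1 stood at -0.23, Srm, spermidine synthase, at 0.037, Hk2 at -0.027 and Ldha at 0.11. Each role thus held members on both sides of 0, except the chaperonin pair, which shares its promoter and had both below 0.

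At promoters, limma called 0 of 15089 genes for H3K4me1 length (0.0%), with 368 genes (2.44%) at an unadjusted p under 0.05, of which Grwd1 was the only member. Here 37 members could be measured, all but Ldha, Supv3l1 and Slc29a2, with 17 above 0, 20 below and a median of -0.008 against 0.001 over all genes. At the Grwd1 promoter H3K4me1 covered 580 and 631 bp in WT and 778 and 1142 bp in RXRKO. Both RXRKO libraries were higher, RXRKO replicate 2 by most. The difference was 0.55 ± 0.24 (SE, limma on log2 of bp plus 100, n = 2, unadjusted p = 0.0496, adjusted p = 1.0), with 0.41 within replicate 1 and 0.69 within replicate 2. With peaks of fold 4 or more only it was -1.16, and within 500 bp of either end it was 0.27. With the replicate block 3 members had an unadjusted p under 0.05, Grwd1, Nop2 and Pa2g4, as did 6.64% of genes, and 0 genes were called. Both RXRKO libraries were above both WT libraries in 4 members, Grwd1, Nop2, Exosc5 and Nop16, where 11.6% of genes were, and below in 1, Ppan, where 10.7% were. Leaving out 1 library gave up to 101 called genes, without RXRKO replicate 2, and no member among them.

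For H3K4me3 and H3K27ac the same window lengths were compared between single libraries. After 1000 bp were added and the libraries centred, H3K4me3 length was past 1.5-fold in no member, where 1.11% of all genes were past it on the higher side in RXRKO and 0.108% on the lower side. After centring, 9 members were above 0 and 31 below, as were 6574 and 10075 of all genes, with a median of -0.083 against -0.042 over all genes. Before centring, which moves values by 0.12, the split was 26 above and 14 below, and 13139 and 3496 over all genes. The 8 members of large subunit assembly were all below 0 after centring, from -0.16 to -0.019, but Wdr12, for example, had 2457 bp in WT and 2463 bp in RXRKO. Ppan, Nop16 and Bop1 were also longer in RXRKO before centring. Pa2g4, Pes1, Gnl3 and Grwd1 were shorter, for example Pa2g4 with 6000 bp in WT and 5794 bp in RXRKO. The sign thus turned with the centring in some of these genes and not in others.

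The highest H3K4me3 values were those of Rcl1, Supv3l1 and Noc4l. The Rcl1 window (gene on chromosome 19, 29101375 to 29143851) held 4 peaks over 3769 bp in WT and 6 peaks over 5655 bp in RXRKO, a difference of 0.36. In plain lengths, before 1000 bp were added and the libraries centred, Rcl1, Supv3l1 and Noc4l were at or just past 1.5-fold. The promoter peak was 1971 bp in WT and 1936 bp in RXRKO, so the longer cover lay away from the promoter. A peak of 1017 bp inside the gene in WT was 1149 bp in RXRKO, and one past its higher end was 313 bp in WT and 997 bp in RXRKO. The peaks chr19:29142222-29142677 and chr19:29150218-29150473 had no WT counterpart. The Supv3l1 window held 1566 bp in WT and 2454 bp in RXRKO (0.31), and the 2 added peaks lay at chr10:62410962-62411394 and chr10:62413254-62413845, in the flank past the gene's lower end. The Noc4l window held 1711 bp in WT and 2639 bp in RXRKO (0.30), with 1 added peak at chr5:110636064-110636358 and with its promoter peak at 1431 bp in WT and 1711 bp in RXRKO. The added peaks had the authors' folds of 2.99 to 3.77, below the promoter peaks at 8.02 to 9.90. The RXRKO H3K4me3 list held 58136 peaks against 47835 in WT.

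For H3K27ac, 39 members were measured, all but Noc4l with 1047 bp in WT and 892 bp in RXRKO. The difference was above 0 in 22 and below 0 in 17, with a median of 0.015 against 0.008 over all genes, of which 7960 were above and 7489 below. Before centring the split was 13 and 26, and 5629 and 9804 over all genes. Prmt3 alone was past 1.5-fold, on the higher side, where 1.29% of all genes were past it on that side and 1.84% on the lower side. The next values were 0.39 for Wdr12, with 2118 bp in WT and 2859 bp in RXRKO, and 0.28 for Ppat, with 3398 and 4037 bp. The lowest was Srm at -0.20, with 3135 bp in WT and 2400 bp in RXRKO. In Wdr12 the added cover included a peak inside the gene, chr1:60073376-60073800, called in RXRKO only.

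**Figure D3:**
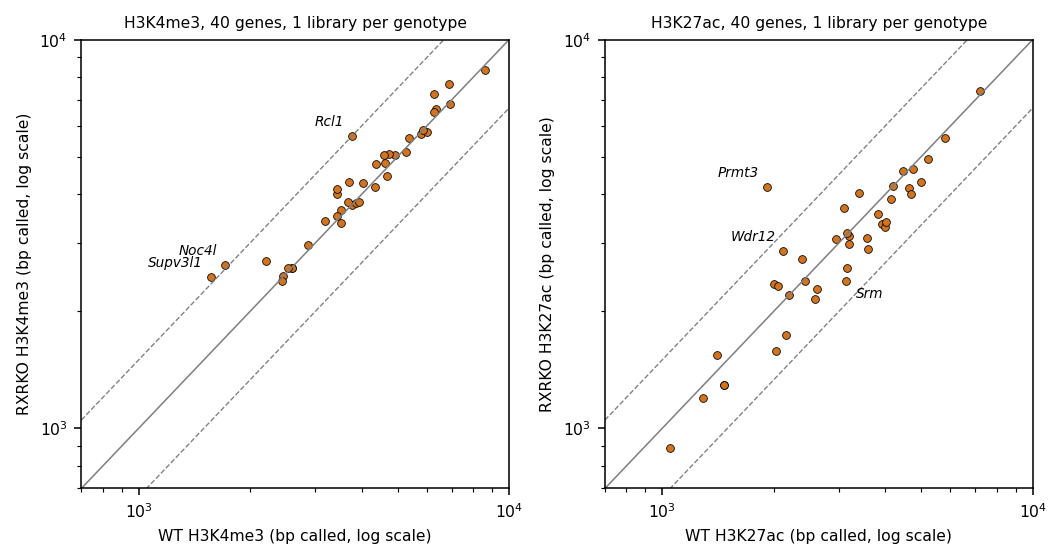
Length covered by called peaks over each gene plus 20 kb, in bp on log axes, WT on the horizontal and RXRKO on the vertical axis, for H3K4me3 (left) and H3K27ac (right), each point 1 of the 40 MYC targets and each mark 1 library per genotype. The solid line marks equal lengths and the dashed lines 1.5-fold before centring. Prmt3, with 1912 bp in WT and 4174 bp in RXRKO, stands alone above the upper line for H3K27ac, and Rcl1, Supv3l1 and Noc4l lie on or just above it for H3K4me3.

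The Prmt3 window (gene chr7:49778319-49861264, plus strand) held 1912 bp of H3K27ac in WT and 4174 bp in RXRKO, a difference of 0.91. 4 distal regions were called in RXRKO only, and none in WT only. They were chr7:49764796-49765088, inside the neighbouring gene Htatip2 (fold 2.38), and, inside Prmt3, chr7:49805059-49805329 (fold 2.42), chr7:49805534-49806054 (fold 2.61) and chr7:49824092-49824541 (fold 3.18). Near the start, 1 more RXRKO peak without a WT counterpart, chr7:49779121-49779704 (584 bp, fold 3.16), lay 802 to 1385 bp after the gene's lower end. All 4 distal regions were covered by H3K4me1 in all 4 libraries and by H3K4me3 in neither genotype. The H3K4me3 promoter peak was alike in both, 49778177 to 49779636 with fold 11.8 in WT and 49778183 to 49779608 with fold 12.7 in RXRKO. H3K4me1 over the window covered 7823 and 9224 bp in WT and 7635 and 11330 bp in RXRKO, with the genotypes overlapping. With peaks of fold 4 or more only, the Prmt3 H3K27ac difference was -0.17, so it rests on peaks of low fold in 1 library per genotype.

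**Figure D4:**
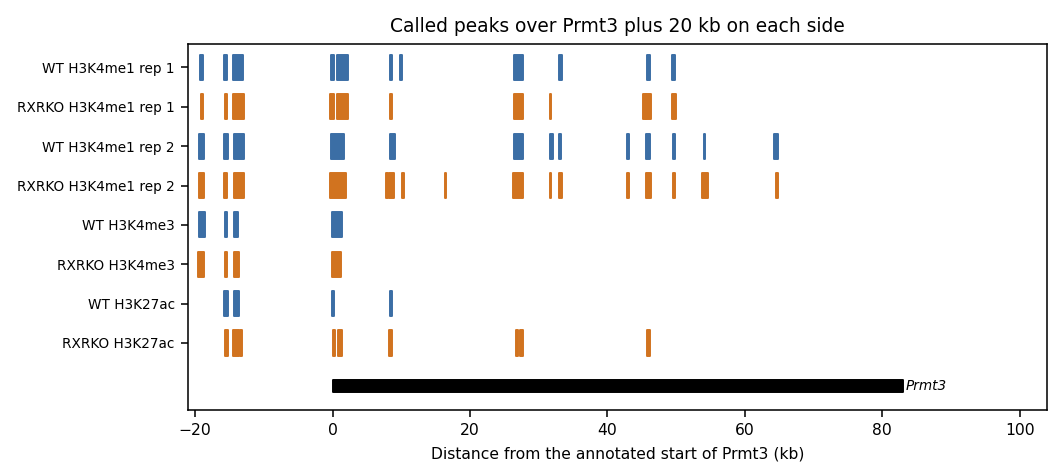
Called peaks (bars, WT blue and RXRKO orange) of the 8 libraries over Prmt3 plus 20 kb on each side, against the distance from the gene's lower annotated end in kb, with the gene as a black bar. RXRKO H3K27ac has peaks inside the gene near 27 and 46 kb, where WT has none and all 4 H3K4me1 libraries have peaks.

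Distal H3K27ac, in merged peaks more than 1 kb from any gene end, gave 100 regions in the members' windows. 55 were called in both genotypes, 26 in WT only and 19 in RXRKO only. The shares of 55.0%, 26.0% and 19.0% compare with 59.1%, 26.5% and 14.4% of the 51181 such regions in all gene windows, so the members' split was near the background. These regions include the RefSeq starts of Ldha, Supv3l1 and Slc29a2, which lie inside the annotated gene, as 3 shared regions. Leaving out the 7 regions within 1 kb of any RefSeq start, an alternative added after the values were seen, left 49, 26 and 18, or 52.7%, 28.0% and 19.4%, against 58.4%, 26.9% and 14.6%. Of all 100, H3K4me1 was called in all 4 libraries at 54 of the 55 shared regions, 21 of the 26 WT regions and 11 of the 19 RXRKO regions. H3K4me3, the mark of gene starts, was called at 41 of the shared regions in WT and 42 in RXRKO. It was called at 4 and 9 of the WT regions, and at 6 and 8 of the RXRKO regions. Hk2 had the most distal regions, 8, of which 6 were shared. Prmt3 had 7, and Rcl1 and Ldha had 6 each, of which 1 was the Ldha start itself. 9 members had none, namely Hspe1, Hspd1, Rrp9, Grwd1, Ppan, Utp20, Pes1, Gnl3 and Nolc1.

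The 5 regions of 1 genotype with the highest −log10 q were all called in WT only. This ranking sets values of separate lists side by side, so their genotype is not a comparison. The highest, chr1:34432760-34433540, lay in the flank of Imp4, 3130 bp from the nearest gene end, with −log10 q 13.7 and fold 3.86. H3K4me3 covered 781 bp of it in WT and 736 bp in RXRKO. The next H3K27ac region beside it, chr1:34433856-34434742, was called in both genotypes. In the flank of Noc4l, chr5:110639422-110639688 had −log10 q 11.6 and fold 5.20. An H3K4me3 peak at the same place was 280 bp long in WT and 633 bp long in RXRKO. Inside Rcl1, chr19:29142043-29142772 had −log10 q 11.1 and fold 3.73, and it overlaps the H3K4me3 peak called there in RXRKO only. In the flank of Fbl, chr7:28151739-28152132 had −log10 q 9.37 and fold 4.68, and in the flank of Ldha, chr7:46833352-46833749 had −log10 q 7.65 and fold 2.47. H3K4me3 was called at the Fbl region in RXRKO only and at the Ldha region in neither genotype. At each of these 5 regions H3K4me1 was called in all 4 libraries, so H3K4me1 was present in RXRKO where H3K27ac was not called.

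H3K4me1 peaks of the 4 libraries merged into 345 regions in the members' windows. 218 were called in all 4 libraries (63.2%, against 62.6% in all gene windows). 15 were called in both RXRKO libraries and in neither WT library (4.35%, against 2.08%), and 2 in both WT libraries and in neither RXRKO library (0.58%, against 1.81%). The 15 regions were 250 to 878 bp long with folds of 1.59 to 4.12, and 7 lay inside a member, in Hspe1, Nop58, Ncl, Hk2 (2 regions), Tcof1 and Rcl1. They fell in the windows of 13 members. The 2 WT regions lay in Hk2 (chr6:82772133-82772368) and in the Exosc5 window (chr7:25653179-25653493). With peaks of fold 4 or more only, the counts turned to 2 in RXRKO (1.17%, against 1.03% in all gene windows) and 13 in WT (7.6%, against 5.13%). With −log10 q of at least 5 they were 4 (1.3%, against 2.08%) and 1 (0.325%, against 1.56%), and with the same number of peaks from each list 9 (2.75%, against 2.07%) and 4 (1.22%, against 1.87%). Without RXRKO replicate 1 the counts were 42 (12.1%, against 10.7%) and 4 (1.15%, against 3.45%). Without WT replicate 1 they were 26 (7.6%, against 4.64%) and 19 (5.56%, against 6.85%). Without WT replicate 2 they were 21 (6.27%, against 4.80%) and 12 (3.58%, against 4.84%). Without RXRKO replicate 2 they were 23 (6.93%, against 4.53%) and 15 (4.52%, against 5.06%). The share of RXRKO regions thus lay below that of all windows with −log10 q of at least 5. Regions called in both replicate 1 libraries only numbered 9 (2.61%, against 1.03%), and in both replicate 2 libraries only 10 (2.90%, against 3.97%).

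The other MYC targets, 29 genes of the same pathway outside the set (Npm1, Cdk4 and Mcm4 among them), were read from the same fits. H3K4me3 and H3K27ac were called at 28 of the 29 promoters in both genotypes, and Map3k6 had neither. For H3K4me1 windows limma called 0 of 29, with 0 at an unadjusted p under 0.05, 13 above 0 and 16 below, and a median of -0.006. For H3K27ac windows 7 were above 0 and 21 below with a median of -0.12, and for H3K4me3 windows 8 were above and 21 below with a median of -0.058. The H3K27ac median lies on the other side of 0 from the members' 0.015, a difference that was not tested.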

How the data were processed

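The deposited files hold the called peaks of 8 libraries. Reads were trimmed with cutadapt 1.7.1, aligned to mm10 with Bowtie2 2.2.5, and peaks were called with MACS3, per the submitters' processing notes. Not given in the sources used here are its settings, a control library, duplicate handling or a spike-in. In the deposited lists the score is 10 times the −log10 q without decimals. The fold the authors deposited is a ratio of peak height to a background, and what that background was is not stated. Their −log10 p and −log10 q come from the peak caller. These values ranked or filtered peaks within 1 list, except that the 5 distal H3K27ac regions were chosen by −log10 q over both lists. The deposited summit offsets were not used. Coordinates are 1-based on mm10. A gene's position came from a supplied annotation of mm10 that gives the 2 ends, and starts and promoter letters from RefSeq (GRCm38.p6), which matched 35 of 40 members. Exons and introns were not used.

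The base pairs covered by called peaks were summed per gene, over the gene body plus 20 kb (log2 of bp plus 1000, mean of at least 1000 bp) and within 1 kb of either end (log2 of bp plus 100, mean of at least 200 bp). H3K4me1 was tested over all genes with limma 3.58.1 (R 4.3.3, lmFit and eBayes with trend) and Benjamini-Hochberg adjustment, and no value is adjusted over the 40 genes alone. The test was checked on simulated data. A promoter was called where a peak overlapped it by at least 1 bp. H3K4me3 and H3K27ac have 1 library per genotype and no test, and 1.5-fold was used as a size mark. The members, the roles and the other lists were chosen with earlier results of these data known. All 40 members are accounted for. Values in every library are given for the 4 highest and 4 lowest H3K4me1 window differences, members with an unadjusted p under 0.05, members with an uncalled promoter or past 1.5-fold, the 3 widest and 3 narrowest WT H3K4me3 promoter peaks, overlapping windows, and the 5 distal H3K27ac regions of 1 genotype with the highest −log10 q. Nop58, Wdr43 and Gnl3 at the start, and Rcl1, Supv3l1, Noc4l and Wdr12 in single libraries, were chosen after their values were seen.

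By the run tags within peak names, the replicate 1 libraries of H3K4me1 shared 1 run, which held both genotypes, and the remaining 6 libraries shared another. Replicate numbers thus pair the H3K4me1 libraries by this tag. The tags are read here as runs, which the sample titles do not state. Replicate differences of WT and RXRKO had a correlation of 0.212 across 17760 genes, which are not independent replicates.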

Additional observations from a re-analysis of the deposited data

How the results depend on the processing

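No member was called under any alternative for H3K4me1. With the replicate block, which takes the replicate number into the fit, 2 genes were called for window length and 0 for promoter length. No member was among them, and the block changed no other call. At promoters the block gave 3 members an unadjusted p under 0.05 (Grwd1, Nop2 and Pa2g4) in place of 1. Genes called for window length numbered 2 with −log10 q of at least 5, 65 without centring and 204 without the filter. They ran from 0 to 98 when 1 library was left out, and those for promoter length from 0 to 101. Each of these fits has 1 library in a genotype, assumed to vary like the 2 of the other.

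Members with both RXRKO libraries above both WT libraries in window length numbered 4 with the same number of peaks per list, and 14 to 15 with 1 library left out. Those below numbered 5 with the same number of peaks, 2 without centring, 5 with 50 kb flanks, and 12 to 14 with 1 library left out. At promoters, those above numbered 2 with fold of at least 4 and 2 with −log10 q of at least 5, and 6 to 17 with 1 library left out. Those below numbered 7 with fold of at least 4, 2 with the same number of peaks, 2 without centring, 3 without the filter, 3 at the end with more H3K4me3 and 3 within 500 bp, and 8 to 14 with 1 library left out. With 3 libraries in place of 4, groups overlap less by construction. The shares over all genes under the same settings are not given here, so these counts are not set against a background.

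With peaks of fold at least 4 only, the window differences of Nme1 and Noc4l turned to 0.024 and -0.090, the promoter difference of Grwd1 to -1.16 and the H3K27ac difference of Prmt3 to -0.17. The Hspe1 difference was 0.11 with 50 kb flanks and ran from -0.32 to 0.078 with 1 library left out. With fold of at least 4, H3K27ac promoters were called in WT only at 2 members and in RXRKO only at 1, and 1 member was past 1.5-fold lower in H3K27ac window length. Distal H3K27ac regions in both, WT only and RXRKO only numbered 32, 12 and 12 at over 5 kb from any gene end, and 25, 8 and 6 with fold of at least 4. With −log10 q of at least 5, those of 1 genotype numbered 16 in WT and 10 in RXRKO. These H3K27ac counts also stand without the shares over all genes under the same settings. H3K4me1 regions of 1 genotype, an alternative chosen after seeing the data, numbered 2 in RXRKO and 13 in WT with fold of at least 4, 4 and 1 with −log10 q of at least 5, and 9 and 4 with the same number of peaks. With 1 library left out they ran from 21 to 42 in RXRKO and from 4 to 19 in WT. The causes were not tested. H3K4me3 promoter calls and window lengths past 1.5-fold stayed within 1.5 times their count under every alternative run. Depth is unknown, and a peak under the caller's threshold counts as absent.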
